A study of Mus musculus with 10 samples.

Results

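The potassium channel subunit genes of the mouse cochlea were compared between nicotinamide riboside (NR) treatment and regular water. They were taken as every protein-coding gene whose symbol starts with Kcn followed by a letter, without the G protein-gated channel genes Kcnj3, Kcnj5, Kcnj6 and Kcnj9 and the genes of potassium secretion and buffering Kcnj10, Kcnj16, Kcnq1 and Kcne1. This gave 86 of the 94 protein-coding Kcn genes, in a count table of 54532 genes. Cochlear RNA came from 10 mice aged 12 months that carried the mtKeima reporter, a fluorescent protein targeted to mitochondria that reads their delivery to lysosomes. The 5 NR mice drank NR, a precursor of NAD+, at 7 mg/ml (24 mM) for 10 months from an age of 2 months, and the 5 Vehicle mice drank regular water. The methods describe both groups as wild type for the Cdh23 allele of early hearing loss and for Nnt, on a mixed background.

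Total counts per mouse lay between 17060379 and 22931581 in NR (median 22346972) and between 20004667 and 24419230 in Vehicle (median 23007355). The labels call the mice female and the methods call them male. All 10 libraries held 2 to 8 reads of Xist, 1235 to 1928 reads of Ddx3y and 444 to 721 reads of Uty, which goes against the label. Hair cell genes (Otof, Myo7a, Ocm) and genes of the stria vascularis and of neurons were present in every library. The outer hair cell motor gene Slc26a5 was low, with 1 to 129 reads.

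Potassium channels let potassium ions leave or enter cells and so set the resting potential, the shape of action potentials and the rate at which neurons can fire. Pore subunits assemble around a central path for the ion. Voltage-gated members open on depolarization, and most members of the calcium- or sodium-activated class open when those ions rise inside the cell. Inward rectifiers hold the membrane near rest, and channels of the tandem pore domain (K2P) class carry a steady leak. Silent subunits do not form channels alone but change those of the Kcnb class, and auxiliary subunits alter gating or delivery to the membrane. In the cochlea, sensory hair cells use several of these channels to end their receptor potential, and the auditory neurons behind them use fast voltage-gated channels to follow sound with precise spikes. Kcnma1 is known from hair cells, and Kcna1, Kcna2 and Kcnc1 from auditory neurons.

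The levels of these genes spanned a wide range. Levels between genes are given as CPM (counts of the gene scaled to a library of fixed size with TMM normalization) divided by gene length in kilobases, averaged over all 10 mice. Kcnab2, a cytoplasmic subunit of Kcna channels, was highest at 98.6 CPM per kb. Also among the 10 highest were the leak channel gene Kcnk1 at 55.5, Kcnc1 at 35.0, Kcnh2 at 31.6, the silent subunit gene Kcns1 at 29.3, Kcnab3 at 28.5, Kcna2 at 27.0 and the sodium-activated Kcnt1 at 19.3 CPM per kb. The 10 highest genes held 69.6% of the summed level of all 86. The lowest, the silent subunit gene Kcnv2, stood at 0.00492 CPM per kb. Of the 86 genes, 76 had a read in every mouse and 75 had enough reads to be tested. The 11 that were not tested (Kcne1l, Kcnmb3, Kcnj1, Kcnf1, Kcng3, Kcns2, Kcnv2, Kcnk15, Kcnk16, Kcnk7 and Kcnh4) had 4 to 79 reads over all libraries together.

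**Figure D1:**
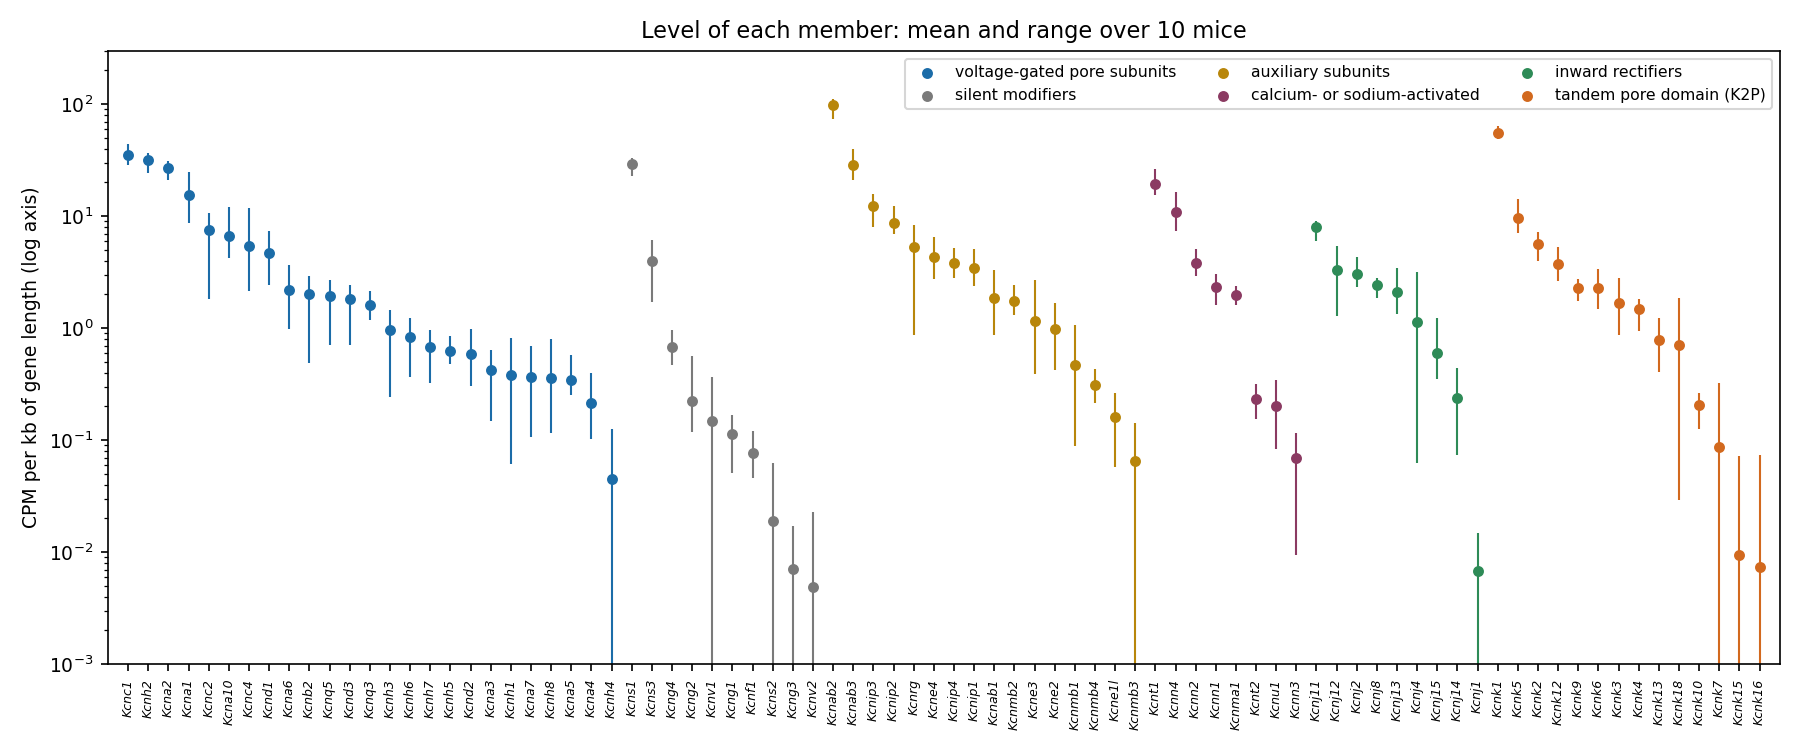
Level of the genes as CPM per kb of gene length on a log axis, ordered and coloured by role. Points are means and lines the range over 10 mice, and a line that reaches the bottom of the axis includes mice with 0 reads. Kcnab2 is highest at 98.6 and Kcnv2 lowest at 0.00492.

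Long-term NR was compared with Vehicle to ask how these genes differed between treated and non-treated old cochleae. With the edgeR quasi-likelihood test, 8 members were higher in NR at an unadjusted p at or below 0.05, the threshold the study used to pass genes on, against 4.83% of the 18329 genes tested that were higher. That is 10.7% of the 75 members tested. Lower in NR were 3 members, or 4%, against 4.88% of all genes. No member passed a Benjamini-Hochberg adjusted p of 0.05, against 0% of all genes with edgeR, and the lowest adjusted p among members was 0.320, for Kcnk3. DESeq2 gave 16 members higher (3.5% of all genes) and 3 lower (3.08% of all genes), and Kcnk3 alone had an adjusted p at or below 0.05 (0.52% of all genes). It called all 8 and all 3 of the edgeR calls in the same direction. The DESeq2 shares are over 33153 genes, or 19633 for the adjusted p, and include genes with too few reads for the edgeR test. All 86 members were in it, so the DESeq2 and edgeR shares are not over like sets of genes. Of the edgeR calls, 72.7% were higher in NR among members and 49.8% among all genes, and with upper-quartile scaling these shares were 86.7% and 62.7%. Among tested members, 69.3% had a positive log2 fold change (NR minus Vehicle), against 47.1% of all genes, and the median was 0.18 against -0.01. Calls at an unadjusted p hold false positives. The p-values set the difference between groups against the spread between mice within groups, for these 10 samples. In bulk tissue, fewer cells of a type and less RNA per cell cannot be told apart.

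The voltage-gated pore subunits held 7 of the 8 higher calls. Of 29 genes, 28 were tested. 7 were higher (25%, against 4.83% of all genes), 0 lower (against 4.88%), and 21 did not pass. Their median log2 fold change was 0.43, with 22 positive and 6 negative values. The called genes came from the Kcna (1 of 8 tested), Kcnb (1 of 2), Kcnc (2 of 4), Kcnd (1 of 3) and Kcnq (2 of 4) subfamilies. All 7 tested Kcnh genes missed the threshold. In the other roles, 1 of 11 K2P genes was higher and 1 lower (9.09% each, median 0.12). Lower too were 1 of 8 calcium- or sodium-activated genes (12.5%, median 0.03) and 1 of 14 auxiliary genes (7.14%, median 0.16). Counts of 1 in roles or subfamilies this small cannot be told apart from the shares of all genes. No inward rectifier of 8 (median 0.18) and no silent subunit of 6 (median 0.14) was called. The log2 fold changes ran from -0.48 to 1.07 in the voltage-gated genes, -0.40 to 1.51 in the K2P genes and -0.24 to 1.55 in the inward rectifiers. They ran from -0.52 to 0.69 in the calcium- or sodium-activated genes, -0.38 to 0.58 in the auxiliary genes and -0.49 to 0.60 in the silent ones. Members that DESeq2 added included the voltage-gated Kcna2, Kcnd1 and Kcnd3, the Kcnd partner Kcnip3, the inward rectifier Kcnj12 and the silent Kcns2. Kcnj12, a pore of the classical inward rectifier current of muscle and neurons, had 11.4, 6.85, 14.8, 8.21 and 13.7 CPM in NR and 10.9, 5.79, 3.56, 7.32 and 7.89 CPM in Vehicle. NR 2 and NR 4 lay inside the Vehicle range, NR 1, 3 and 5 above it.

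**Figure D2:**
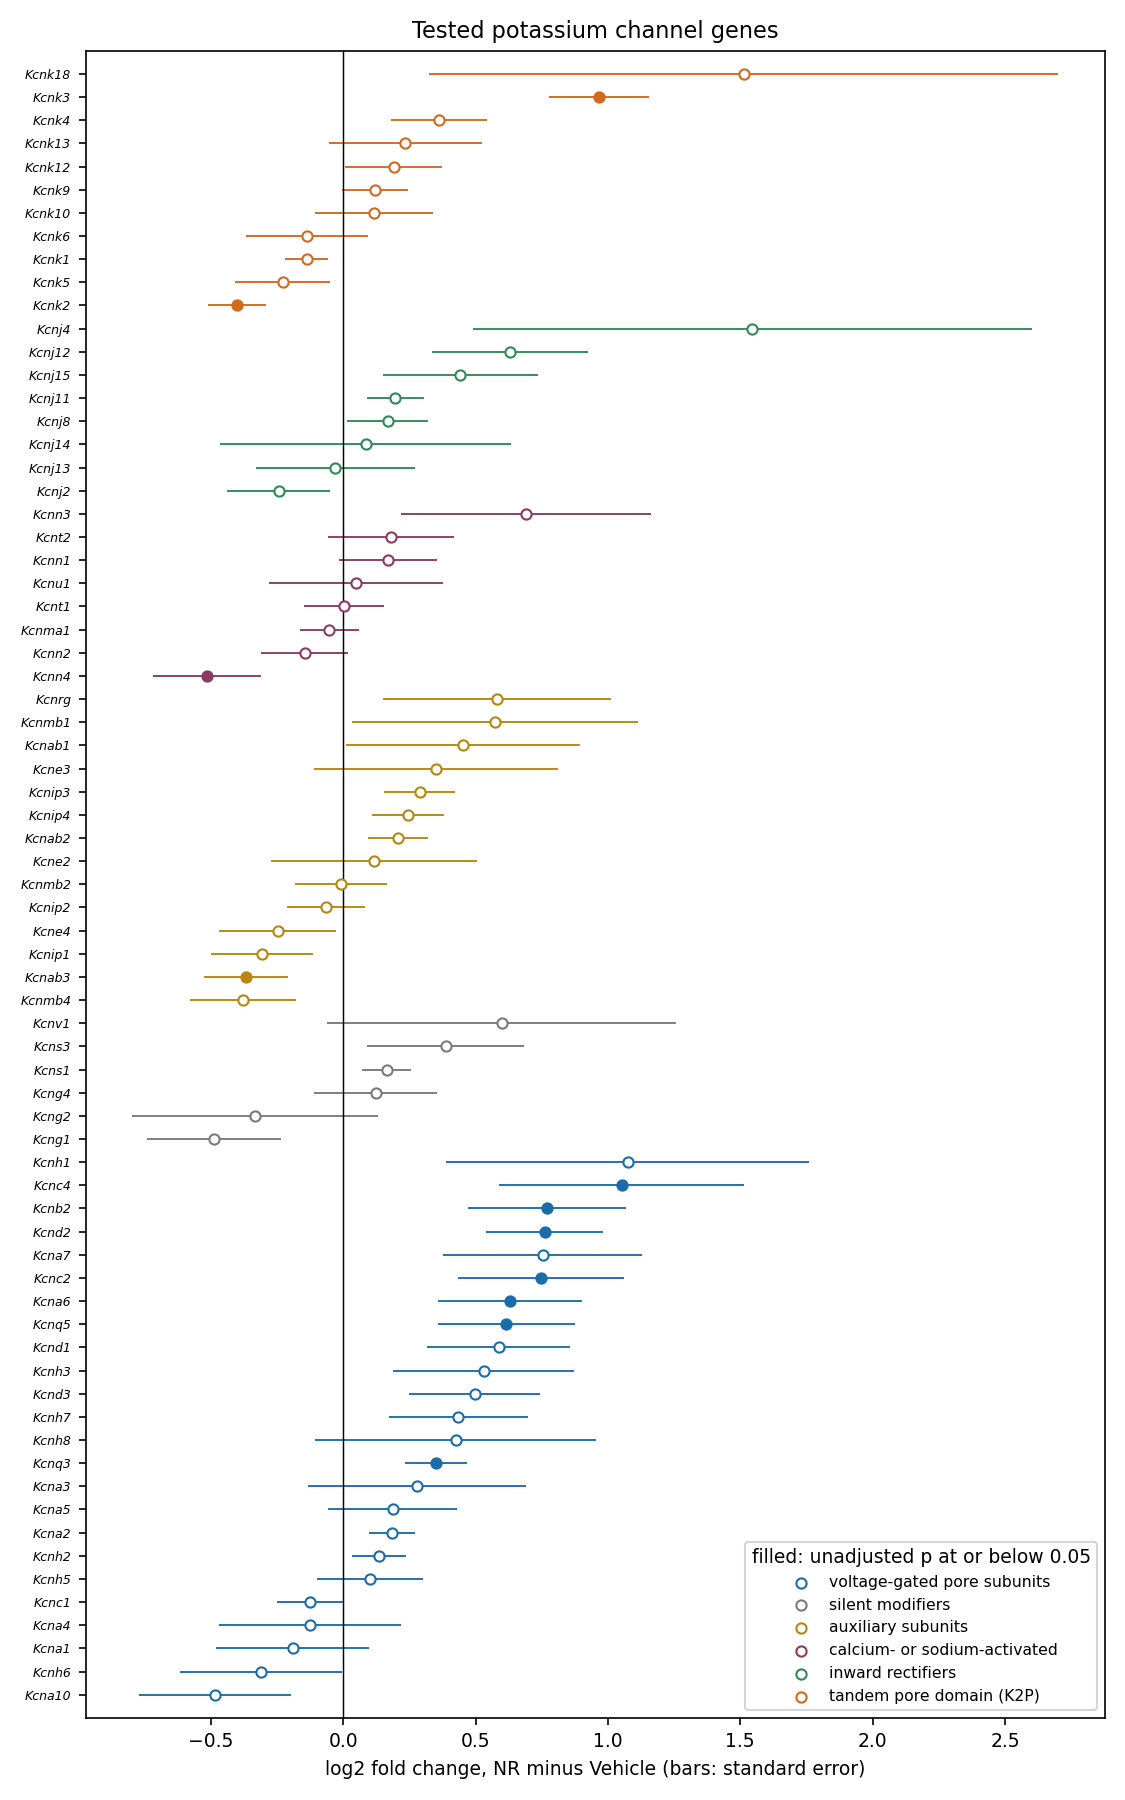
Log2 fold change of NR minus Vehicle for tested members, grouped and coloured by role, with bars of 1 standard error. Filled points have an unadjusted edgeR p at or below 0.05. Most voltage-gated genes lie to the right of 0, with Kcnc4 at 1.05.

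Kcnk3 encodes an acid-sensitive leak channel of the K2P class (chromosome 5, 30588170 to 30625271). It had 7.90, 11.2, 9.04, 9.43 and 6.71 CPM in NR 1 to 5 and 5.76, 5.57, 3.52, 3.44 and 4.41 CPM in Vehicle 1 to 5. Every NR mouse was above every Vehicle mouse, the only tested member of which this was true (1 of 75, against 0.769% of all genes). A count of 1 cannot be told apart from that share. No tested member had every NR mouse below every Vehicle mouse (0.878% of all genes). The mean was 8.86 ± 1.68 (SD, n = 5) in NR and 4.54 ± 1.10 (SD, n = 5) in Vehicle, a fold of 1.95. The log2 fold change was 0.97 with a standard error of 0.19 (edgeR p = 0.000357, adjusted p = 0.320, exact permutation p = 0.00794). The exact p is the smallest that 5 mice against 5 allow. It is set by the groups not overlapping and is no further evidence of a difference. DESeq2 gave an adjusted p of 0.000898. An antisense transcript, Gm9899, overlaps 5.8% of its exon bases.

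Kcnd2 encodes a pore subunit of the transient A-type current of neurons. It had 2.75, 5.06, 4.07, 3.10 and 4.28 CPM in NR and 1.89, 3.01, 1.58, 2.51 and 2.37 CPM in Vehicle. The NR mice were mostly above, with NR 1 below Vehicle 2. Its log2 fold change was 0.76 (SE 0.22, edgeR p = 0.00577, adjusted p = 0.423, exact permutation p = 0.0159). The sister genes Kcnd1 (0.59, SE 0.27, edgeR p = 0.0530, adjusted p = 0.519, exact permutation p = 0.0714) and Kcnd3 (0.50, SE 0.25, edgeR p = 0.0715, adjusted p = 0.545, exact permutation p = 0.0635) missed the threshold and were positive.

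The Kcnd2 promoter is shown because it is a called gene whose upstream window holds none of its own annotated exons. Exons of other genes were not looked for in the windows. In RefSeq (GRCm38.p6) the 250 bases before a listed transcription start are chr6:21215096-21215345, plus strand, with 68.8% G and C. Capitals mark a GC box, GGGCGG, searched on both strands.
Kcnd2: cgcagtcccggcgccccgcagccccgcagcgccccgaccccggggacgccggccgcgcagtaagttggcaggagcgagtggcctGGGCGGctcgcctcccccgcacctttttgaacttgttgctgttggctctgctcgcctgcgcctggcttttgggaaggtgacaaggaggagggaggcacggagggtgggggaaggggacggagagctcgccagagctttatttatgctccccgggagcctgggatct
RefSeq held windows for 63 members (84 windows). GGGCGG on either strand was in 38 of the 84 windows, or 45.2%, against 32.7% of all 32851 windows. The letters TATAAA on either strand were in 1 window, or 1.2%, against 12.4%. Among the 5 called-higher genes with windows, 3 of 9 windows held a GC box.

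Kcnq3 and Kcnq5 encode subunits of the M-current, which damps repeated firing. Kcnq3 had 26.3, 24.2, 31.8, 21.9 and 29.1 CPM in NR and 24.3, 20.8, 17.3, 20.02 and 22.1 CPM in Vehicle. NR 2 and NR 4 lay inside the Vehicle range, and NR 1, 3 and 5 were above it. The log2 fold change was 0.35 (SE 0.12, edgeR p = 0.0118, adjusted p = 0.436, exact permutation p = 0.0397). Kcnq5 had 13.1, 17.4, 20.7, 19.3 and 19.3 CPM in NR and 10.7, 12.2, 5.42, 18.5 and 11.8 CPM in Vehicle. Vehicle 4 was inside the NR range and Vehicle 3 was lowest of all. Its log2 fold change was 0.62 (SE 0.26, edgeR p = 0.0364, adjusted p = 0.488, exact permutation p = 0.0238).

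Kcnb2 encodes a delayed rectifier of neurons. It had 31.7, 38.3, 44.1, 38.1 and 42.6 CPM in NR and 22.7, 22.8, 7.45, 34.5 and 27.0 CPM in Vehicle. Vehicle 4 reached into the NR range, and Vehicle 3 lay far below the rest. The log2 fold change was 0.77 (SE 0.30, edgeR p = 0.0260, adjusted p = 0.476, exact permutation p = 0.0159).

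The Kcnc genes encode the fast channels that let neurons fire at high rates, and 2 of the 4 were called higher. Kcnc2 had 50.9, 66.8, 75.8, 72.6 and 67.7 CPM in NR and 33.3, 40.1, 12.9, 58.2 and 54.3 CPM in Vehicle. NR 1 lay inside the Vehicle range, and Vehicle 3 was lowest by far. Its log2 fold change was 0.75 (SE 0.31, edgeR p = 0.0360, adjusted p = 0.488, exact permutation p = 0.0238). Kcnc4 had 33.5, 12.9, 30.5, 13.7 and 43.6 CPM in NR and 30.3, 7.90, 8.30, 8.02 and 10.3 CPM in Vehicle. NR 1, 3 and 5 and Vehicle 1 were high and the other mice were low, so that the groups overlapped. Its log2 fold change was 1.05 (SE 0.46, edgeR p = 0.0441, adjusted p = 0.502, exact permutation p = 0.0556). The abundant Kcnc1 had a negative estimate that did not pass, -0.13 (SE 0.12, edgeR adjusted p = 0.750). It was highest in Vehicle 2 and Vehicle 5, at 404 and 421 CPM.

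Kcna6 encodes a delayed rectifier of the Shaker family. It had 16.5, 8.81, 21.9, 13.7 and 18.6 CPM in NR and 14.6, 8.62, 5.79, 11.1 and 11.3 CPM in Vehicle. NR 2 and NR 4 lay inside the Vehicle range. The log2 fold change was 0.63 (SE 0.27, edgeR p = 0.0399, adjusted p = 0.497, exact permutation p = 0.0952). The antisense gene Gm26673 overlaps 39.6% of its exon bases, and default counting without strand leaves out reads that fall on both. Kcna2, a dendrotoxin-sensitive channel that curbs firing of auditory neurons, was at 342 ± 25.9 CPM in NR and 301 ± 34.8 CPM in Vehicle (SD, n = 5). It did not pass (log2 fold change 0.18, edgeR p = 0.0571, adjusted p = 0.526, exact permutation p = 0.0714).

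Among lower members, Kcnk2 encodes a leak channel opened by stretch and lipids. It had 24.5, 26.1, 19.5, 28.3 and 22.3 CPM in NR and 34.1, 31.7, 26.4, 35.7 and 31.6 CPM in Vehicle. Vehicle 3, the lowest of its group, was under NR 4 and over the other NR mice. The fold was 0.757 and the log2 fold change -0.40 (SE 0.11, edgeR p = 0.00381, adjusted p = 0.408, exact permutation p = 0.0159). DESeq2 gave an adjusted p of 0.0957. An antisense gene overlaps 12.2% of its exon bases.

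Kcnn4, the intermediate-conductance calcium-activated channel of blood cells and epithelia, had 44.3, 40.3, 42.3, 46.4 and 54.0 CPM in NR and 84.7, 83.2, 48.4, 37.9 and 70.9 CPM in Vehicle. Vehicle 1, 2 and 5 were above every NR mouse, and Vehicle 4 was below all of them. The log2 fold change was -0.52 (SE 0.20, edgeR p = 0.0279, adjusted p = 0.476, exact permutation p = 0.119). Kcnab3, a cytoplasmic subunit of Kcna channels, had 68.1, 84.7, 64.6, 75.5 and 64.1 CPM in NR and 79.0, 115, 98.0, 60.5 and 108 CPM in Vehicle. Vehicle 2, 3 and 5 were above every NR mouse, and Vehicle 4 was below all of them. Its log2 fold change was -0.37 (SE 0.16, edgeR p = 0.0412, adjusted p = 0.499, exact permutation p = 0.119). It did not pass the unadjusted threshold with upper-quartile scaling (-0.35) or with a floor of 1 CPM in 5 samples (-0.36). An antisense gene, Kcnab3os, overlaps 5.1% of its exon bases.

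The promoters of Kcnk2 and Kcnn4 are shown as the lower genes with windows in RefSeq free of their own annotated exons. They lie at chr1:189402274-189402523 (minus strand, 42.4% G and C, no GC box, the most upstream of 4 windows) and chr7:24370013-24370262 (plus strand, 58.8% G and C). Capitals mark a GC box read on the opposite strand.
Kcnk2: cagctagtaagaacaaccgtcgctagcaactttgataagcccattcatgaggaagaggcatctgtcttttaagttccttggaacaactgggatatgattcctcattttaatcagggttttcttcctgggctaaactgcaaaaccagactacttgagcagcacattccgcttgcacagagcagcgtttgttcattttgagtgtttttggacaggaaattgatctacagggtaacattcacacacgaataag
Kcnn4: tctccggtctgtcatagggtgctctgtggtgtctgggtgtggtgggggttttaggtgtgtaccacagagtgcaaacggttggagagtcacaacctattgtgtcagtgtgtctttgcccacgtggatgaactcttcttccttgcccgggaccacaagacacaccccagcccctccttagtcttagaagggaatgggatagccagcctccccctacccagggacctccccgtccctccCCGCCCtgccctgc
The 2 lower genes with windows had 5 windows, of which 2 held a GC box. A match is a description and says nothing about a factor.

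**Figure D3:**
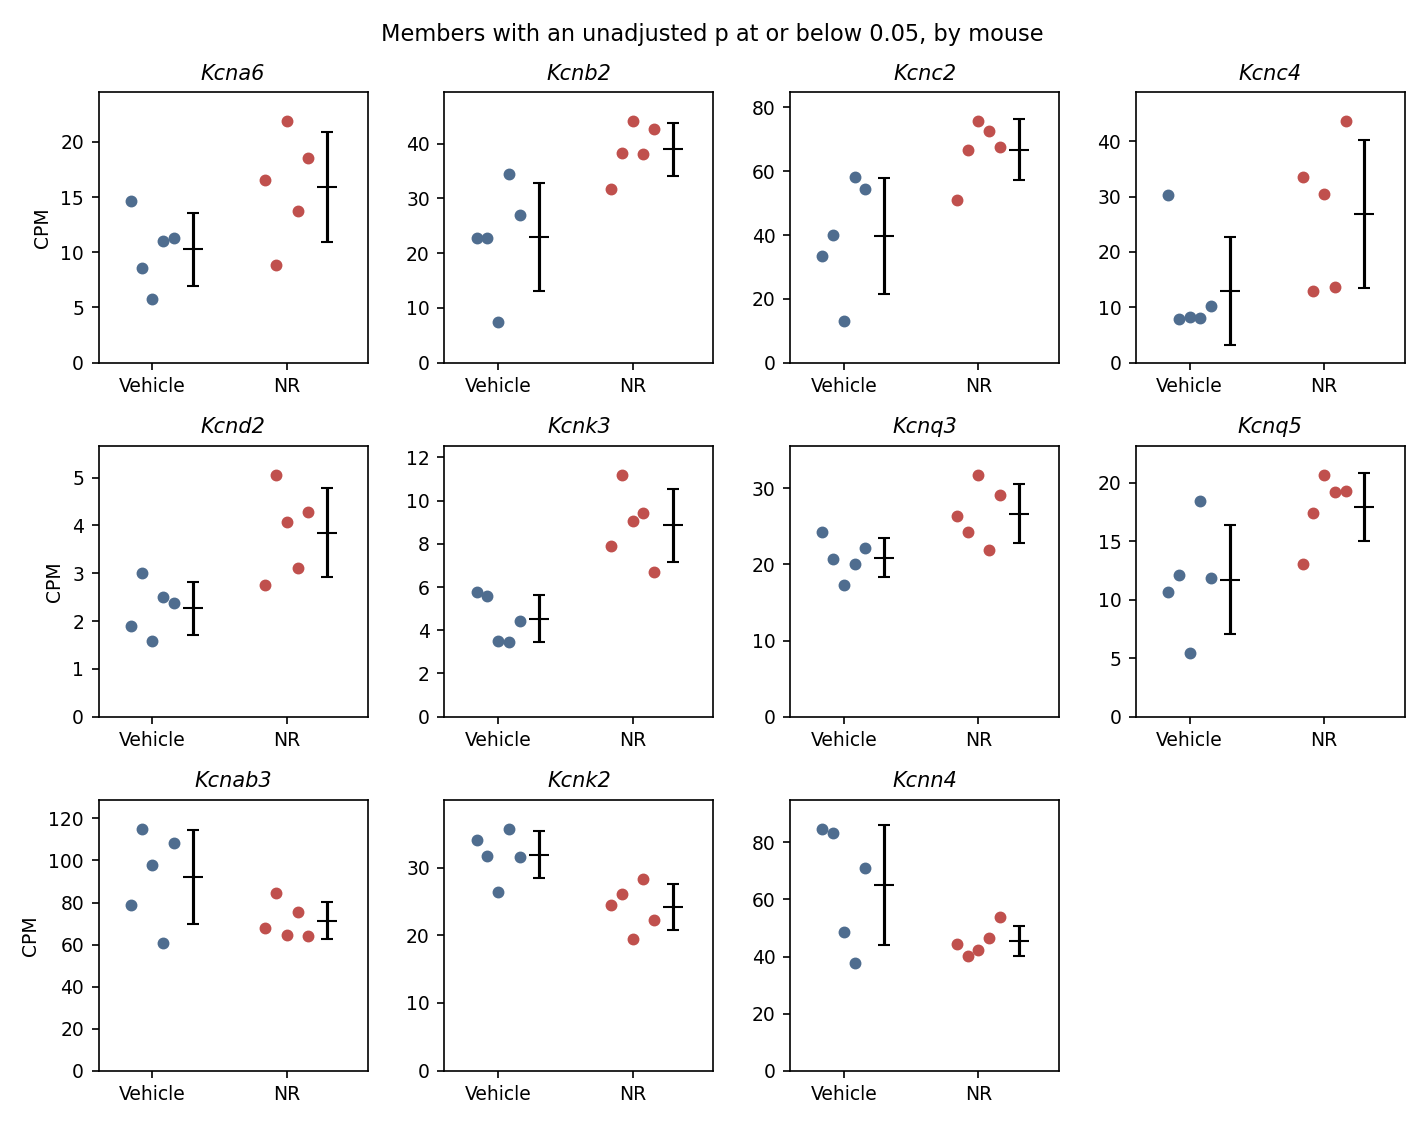
Normalized CPM of the 11 members with an unadjusted p at or below 0.05, 1 point per mouse in order of replicate number, with mean and SD beside each group (n = 5). Only Kcnk3 separates the groups, with NR from 6.71 to 11.2 and Vehicle from 3.44 to 5.76 CPM.

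The stability of these calls to single mice differed. In the 10 fits that left out 1 mouse each, all 11 called genes kept their sign. Kcnb2, Kcnd2, Kcnk2, Kcnk3 and Kcnq3 kept an unadjusted p at or below 0.05 in all 10. Kcnc2 and Kcnq5 did so in 5, Kcna6 and Kcnn4 in 4, and Kcnc4 and Kcnab3 in 3. The count of higher members fell to 4 without NR 3 (5.33% of members, 3.62% of all genes in that fit) and to 4 without NR 5 (5.33% and 4.22%). It rose to 16 without Vehicle 1 (21.3% and 6.6%), 15 without NR 2 (20% and 7.61%) and 13 without Vehicle 5 (17.3% and 4.91%). The count of lower members was 1, or 1.33%, without NR 1 (2.81% of all genes), without NR 3 (2.62%) or without Vehicle 5 (4.73%). Leaving out NR 3 and NR 5 together, a choice made after seeing the data, left 2 higher, both among the 8, and 1 lower. The 2 higher were 2.67% of members against 2.46% of all genes in that fit, and the 1 lower was 1.33% against 2.04%. Leaving out Vehicle 3 and Vehicle 4 together, also chosen after seeing the data, left 8 higher, of which 5 were among the 8 called with all mice (10.7% of members and 4.11% of all genes).

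Several members were high in some mice of both groups. The genes of this paragraph that were not called were chosen after their values were seen. The leak channel gene Kcnk18, known from sensory ganglia, had 4.48, 0.0895, 4.76, 0.742 and 5.67 CPM in NR and 5.16, 0.0898, 0.121, 0.0882 and 0.139 CPM in Vehicle. NR 1, 3 and 5 and Vehicle 1 were high, and all others low. The inward rectifier gene Kcnj4 had 5.20, 0.268, 5.75, 0.218 and 6.83 CPM in NR and 4.82, 0.135, 0.283, 0.529 and 0.557 CPM in Vehicle, with the same 4 mice high. The ether-a-go-go channel gene Kcnh1 had 6.02, 1.16, 4.54, 2.36 and 4.86 CPM in NR and 5.96, 0.943, 0.445, 0.882 and 0.836 CPM in Vehicle. In these mice the neuronal filament gene Prph lay between 118 and 147 CPM, and between 2.03 and 26.8 CPM in the rest. The sodium channel gene Scn9a lay between 30.2 and 33.0 CPM in them and between 7.36 and 15.4 CPM in the rest. Their list of 13 genes of peripheral neurons had mean log2 CPM values of 7.93, 8.04, 7.97 and 7.88, while the other mice lay between 6.92 and 7.79. Without Prph the mean of the other 12 was 8.02, 8.12, 8.03 and 7.96 in these 4 mice and 7.39 to 8.04 in the rest, so that NR 4 lay among the 4. Some genes of the list were not high in these mice, with Slc17a7 at 276 to 301 CPM against 256 to 470 CPM in the rest, and Calb2 at 994 to 1306 CPM against 867 to 1776 CPM. The part of these genes in the calls of Kcnc4 and Kcna6 was not tested.

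Vehicle 3 was the lowest of 10 mice in 19 of 75 tested members, or 25.3%, against 12.8% of all genes. These included Kcnb2, Kcnc2, Kcnq5 and Kcnd3. Vehicle 3 and Vehicle 4 had the highest mean of 14 hair cell genes, 4.51 and 4.71 log2 CPM, against 3.13 to 4.02 elsewhere. Kcna10, a channel gene of hair cells, was high in the same mice, at 26.3 and 22.7 CPM in Vehicle 3 and 4 and at most 17.4 CPM in the others. It had a log2 fold change of -0.48 (SE 0.29, edgeR adjusted p = 0.608). Kcnn2, which hyperpolarizes outer hair cells after efferent input, had a log2 fold change of -0.14 (SE 0.16, edgeR adjusted p = 0.781), and was at 34.3 and 35.8 CPM in Vehicle 3 and 4, with NR 2 above both at 36.9 CPM. Kcna1 had -0.19 (SE 0.29, edgeR adjusted p = 0.839), and its lowest mouse was NR 1 at 41.5 CPM and its highest Vehicle 4 at 120 CPM. Without Vehicle 3 and Vehicle 4, the signs of Kcna10, Kcnn2 and Kcna1 turned positive, at 0.058, 0.047 and 0.20.

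**Figure D4:**
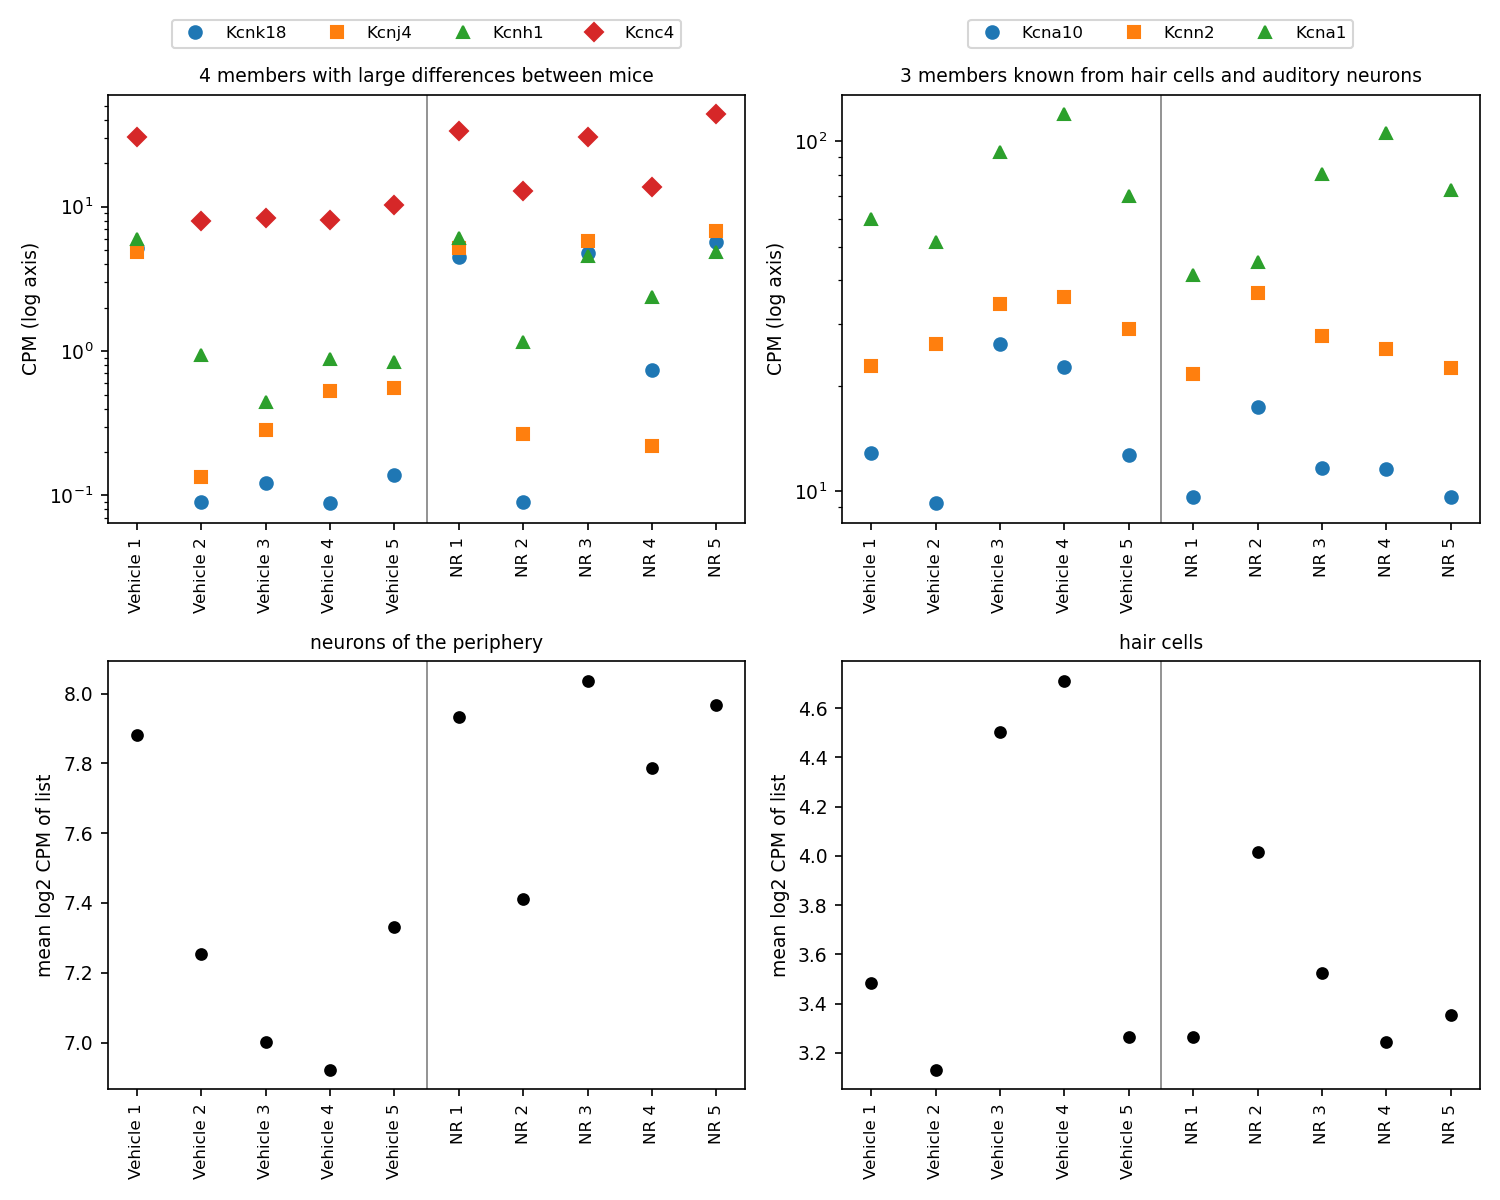
CPM (log axis) of Kcnk18, Kcnj4, Kcnh1 and Kcnc4 and of Kcna10, Kcnn2 and Kcna1 by mouse, above the mean log2 CPM of genes of peripheral neurons and of hair cells. NR 1, 3 and 5 and Vehicle 1 stand high at left, where Kcnk18 exceeds 4 CPM, and Vehicle 3 and 4 stand high for hair cell genes, at 4.51 and 4.71.

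Marker genes of other tissues were also called at an unadjusted edgeR p at or below 0.05. Of all genes, 4.83% were higher and 4.88% lower at this threshold, and none passed an adjusted p of 0.05. For supporting cells, 8 of 10 genes were lower in NR (mean log2 CPM 5.48 to 6.50 in NR and 6.07 to 7.29 in Vehicle), and for the stria vascularis and fibrocytes 7 of 11 were lower (6.94 to 7.75 and 7.55 to 8.60). For hair cells 1 of 14 was lower and all 14 estimates were negative (3.24 to 4.02 and 3.13 to 4.71). Skeletal muscle genes were higher for 9 of 11 tested (0.610 to 5.95 in NR and 0.299 to 3.05 in Vehicle), with the highest values in NR 3 and NR 5, and adipocyte genes for 7 of 9 (2.16 to 3.80 and 0.630 to 1.99). For peripheral neurons 3 of 13 were higher (7.41 to 8.04 and 6.92 to 7.88). Central neurons had 1 of 4 higher, bone 1 of 8 higher, Schwann cells 1 of 8 lower and B cells 1 of 8 lower. Smooth muscle and pericytes had 1 higher and 1 lower of 10, and the higher one, Des, is also counted in skeletal muscle. Counts of 1 in lists this small cannot be told apart from the shares of all genes. Central nervous system glia, neutrophils and erythroid cells had no call in 7, 8 and 7 genes. No listed gene was at 0 in all libraries. Their part in the potassium channel calls was not tested.

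**Figure D5:**
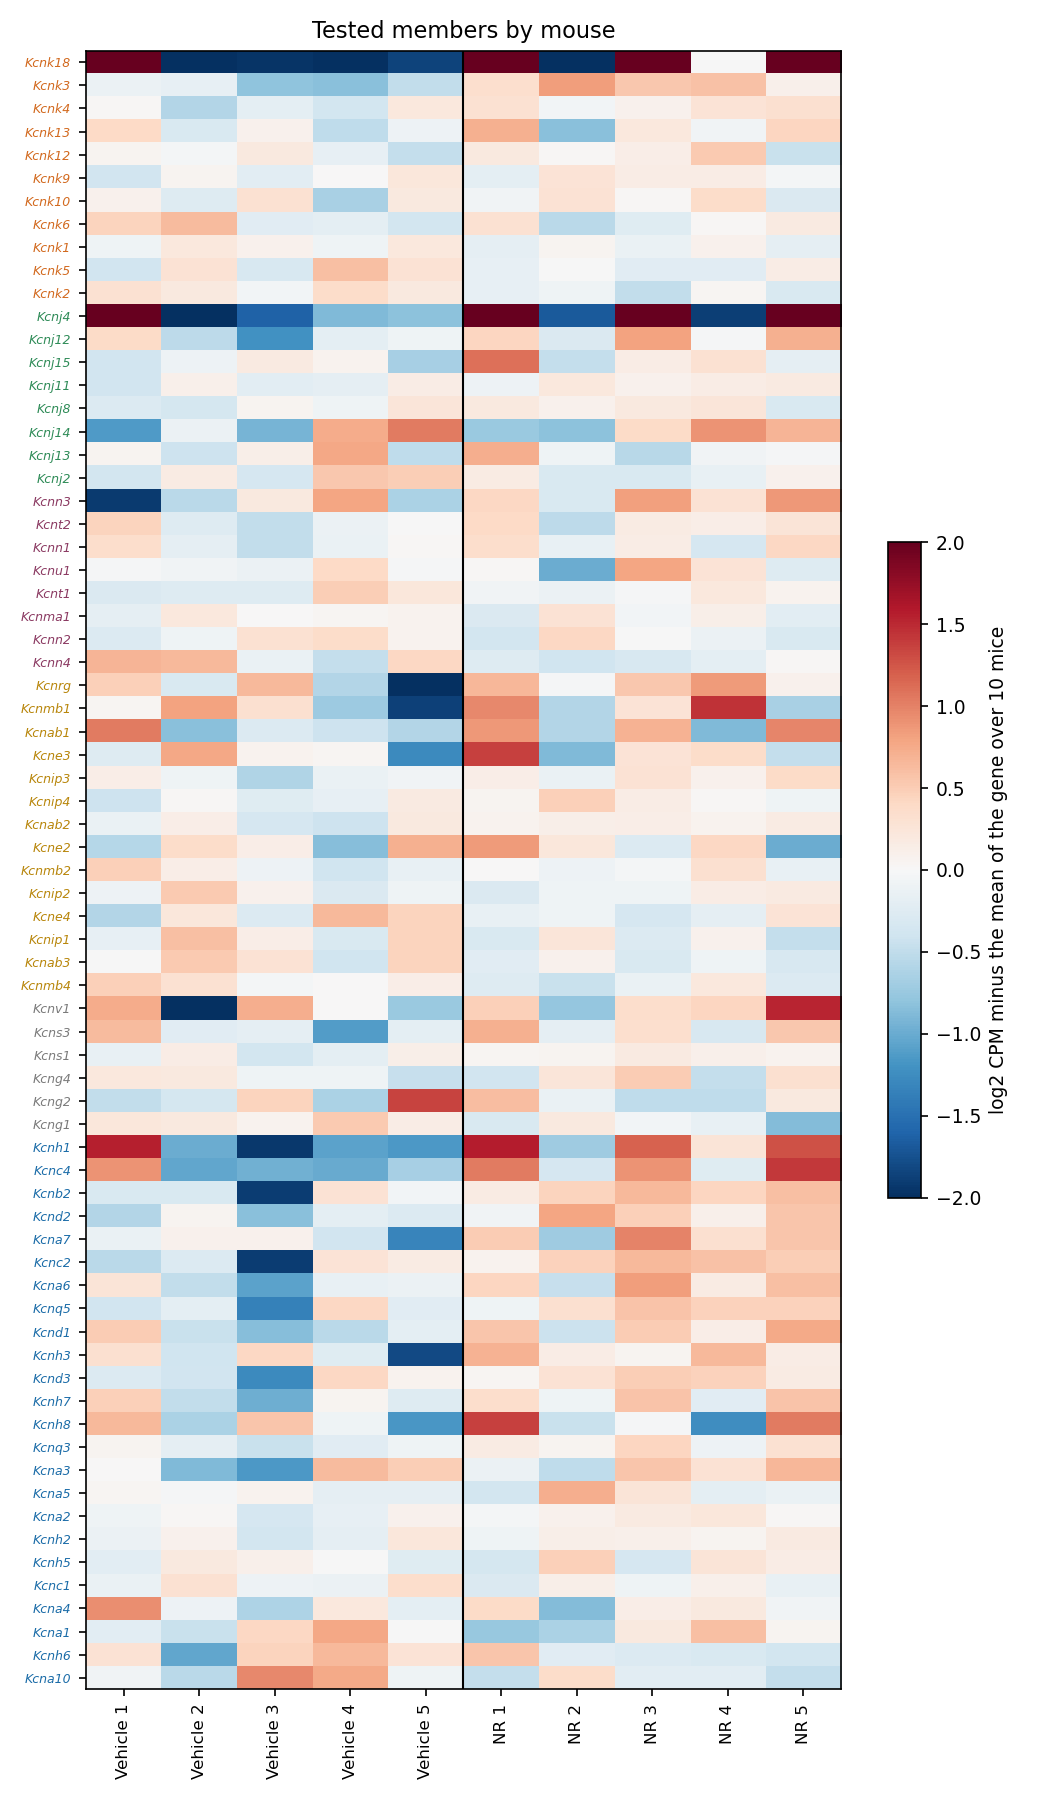
Log2 CPM of tested members in each mouse, minus the mean of that gene over 10 mice, with gene names coloured by role and colours limited to differences of 2 in either direction. Vehicle 3 is lowest for Kcnb2, at 7.45 CPM, and for Kcnc2, at 12.9 CPM.

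Among other genes known for hearing or high in their class, most estimates were small. Kcnma1, the large-conductance calcium-activated channel of hair cells, had 27.5 to 40.8 CPM in NR and 29.5 to 39.0 CPM in Vehicle (log2 fold change -0.05, SE 0.11, edgeR adjusted p = 0.894). Its modifiers Kcnmb1 (0.57, SE 0.54) and Kcnmb2 (-0.01, SE 0.17) did not pass. Kcnt1, activated by sodium, had 183 ± 16.9 CPM in NR and 183 ± 47.6 CPM in Vehicle, with Vehicle 4 at 253 CPM. Kcnh2 had 161 ± 11.3 and 146 ± 23.3 CPM, and Kcns1, a silent subunit, 83.9 ± 3.22 and 74.8 ± 11.4 CPM (SD, n = 5). Kcnk1 had 118 ± 11.0 and 130 ± 13.2 CPM. Kcnab2 had 589 ± 17.6 in NR and 511 ± 94.9 CPM in Vehicle (0.21, SE 0.11, edgeR p = 0.0966, adjusted p = 0.580, exact permutation p = 0.151). Among the pores of ATP-sensitive channels, Kcnj11 had 31.2 ± 2.63 and 27.2 ± 4.29 CPM, and Kcnj8 6.53 ± 0.940 and 5.82 ± 0.995 CPM. Kcnip3, a calcium-sensing partner of Kcnd channels, had 47.8 ± 6.53 and 39.2 ± 6.86 CPM (0.29, SE 0.13, edgeR p = 0.0523, adjusted p = 0.517, exact permutation p = 0.0952).

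Kcne4, an auxiliary subunit, had a log2 fold change of -0.25 (SE 0.22). Kcnrg, a gene for a soluble regulator of channel assembly, had 0.58 (SE 0.43), Kcnu1, the channel of sperm, 0.05 (SE 0.33), Kcng4 0.12 (SE 0.23) and Kcnv1 0.60 (SE 0.66), and none passed. Kcnf1, a silent subunit that was not tested, had 0.340 ± 0.130 and 0.395 ± 0.123 CPM. Kcns2, another silent subunit, was also not tested. It had 3, 4, 8, 4 and 2 reads in NR and 1, 0, 0, 1 and 0 reads in Vehicle. Its groups did not overlap in CPM, which is why it is named here. That alone sets its exact permutation p at 0.00794, the smallest that 5 mice against 5 allow. This p is therefore no further evidence of a difference. Groups were likewise apart for 1.06% of the 33224 genes in the fit without the read filter.

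Proteins that bind these channels were read from a separate list of 14 genes. In this paragraph, higher means only an unadjusted edgeR p at or below 0.05. Of all genes, 4.83% were higher at that threshold, and none passed an adjusted p of 0.05. Dpp6, a partner of Kcnd channels, was higher in NR with a log2 fold change of 0.69 (SE 0.18, edgeR adjusted p = 0.408), at 89.0 ± 9.55 CPM in NR and 55.1 ± 14.8 CPM in Vehicle (SD). Amigo1, a partner of Kcnb channels, was higher by 0.40 (SE 0.11, edgeR adjusted p = 0.411). The other 12 did not pass the unadjusted threshold, so that 2 of 14 were higher, and the list had a median log2 fold change of 0.14. Among HCN channels, relatives that open on hyperpolarization, Hcn3 was higher (0.63, SE 0.19, edgeR adjusted p = 0.423) and Hcn2 and Hcn4 did not pass (0.07 and 0.07). That is 1 of 4 HCN genes. Whether counts in lists this small differ from the share of all genes was not tested. Vehicle 3 was the lowest mouse for Dpp6 at 29.7 CPM and for Hcn3 at 7.93 CPM.

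Some members share exon bases with another gene. Of the 86, 24 did, and 3 over more than 20% of their exon bases, Kcna6, Kcnmb4 with 31.5% and Kcnj13 with 49.1% (Gigyf2, opposite strand). Counting was in the default mode of its tool, which does not use strand and leaves out reads that fall on 2 annotated genes, so reads in the shared bases may be missing from these values.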

How the data were processed

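Cochlear poly(A) RNA was sequenced in paired ends. The authors filtered reads with fastp, aligned them to mm10 with STAR (2.6.1d) and deposited raw read counts per gene from featureCounts (1.5.0, default settings), 1 file per mouse. Per the labels, CASAVA and DESeq2 (1.26.0) were also used. The annotation release is not given in the sources used here.

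Members and lists were chosen with earlier results of these data known. Counts were tested in R 4.3.3 with edgeR 4.0.16 (TMM, filterByExpr by group, glmQLFit and glmQLFTest, NR against Vehicle, no covariate). This kept 18329 genes, and p-values were adjusted over all of them. DESeq2 1.42.0 was an alternative that changed the test, the scaling and the gene filter together, and the other alternatives changed 1 choice at a time. CPM are TMM-normalized. Permutation tests were exact, two-sided, unadjusted and over all labelings of the 10 mice. Coordinates and overlaps came from GENCODE M21 (GRCm38), where all 86 members were found, 82 at the same coordinates, and promoters from RefSeq. Overlaps and figures used python 3.11.15 and matplotlib 3.10.9.

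Genes were named if they had an unadjusted p at or below 0.05, did not overlap between groups, had the highest CPM per kb of their subfamily, or are known for hearing (among them Kcnma1, Kcnmb1, Kcnn2, Kcna10, Kcna1, Kcna2, Kcnc1, Kcnt1 and Kcnj8). Each file is treated as 1 mouse. Some genes are not reported here by name or in figures, and counts, shares and medians include them.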

Additional observations from a re-analysis of the deposited data

Results flagged for a closer look

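A mouse standing far from the other 4 of its group in Dixon's ratio (critical value 0.71) was found in 4 of 76 groups looked at, and chance gives about 1 in 20. Kcnc4 was 30.3 CPM in Vehicle 1, high against the other Vehicle mice. Kcnb2 was 7.45 CPM in Vehicle 3, low in its group. Kcnj8 was 4.92 CPM in NR 5, low in its group. Kcnu1 was 0.970 CPM in Vehicle 4, high in its group.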

How the results depend on the processing

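The count of members higher in NR at an unadjusted p of 0.05 was 8. It was 16 with the DESeq2 Wald test (18.6% of members, 3.5% of all genes), 13 with upper-quartile scaling (17.3% and 6.09%), 16 with every gene with at least 1 read (18.6% and 4.26%), and 2 without NR 3 and NR 5 (2.67% and 2.46%), chosen after seeing the data. The shares with DESeq2 and with every gene include genes with too few reads for the main fit. Leaving out 1 mouse at a time gave 4 to 16 higher (3.62% to 7.61% of all genes) and 1 to 4 lower (2.62% to 5.71%). No member passed an adjusted p of 0.05 in these fits, and the median log2 fold change was 0.16 to 0.22. Groups did not overlap for 1 to 4 members, against 2.01% to 4.63% of all genes. Lower members were 1 without NR 3 and NR 5 (1.33% of members, 2.04% of all genes). With DESeq2, 1 member had an adjusted p of 0.05 or below, Kcnk3 (0.52% of all genes). Members whose groups did not overlap were 2 with every gene with at least 1 read (1.06% of all genes), the second being Kcns2. They were 6 without Vehicle 3 and Vehicle 4, where 5.9% of all genes did not overlap. All 8 higher calls were kept with DESeq2, with upper-quartile scaling and with every gene. Of the lower calls, Kcnab3 was lost with upper-quartile scaling and with the floor of 1 CPM. The median kept its sign in every alternative run. The cause of the differences was not tested.

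With the replicate number as a block, 13 members were higher (17.3% of members, 4.8% of all genes), 7 of them among the 8. In that fit 3 were lower (4% and 4.23%). The block ended the calls of Kcna6 (0.62) and Kcnab3 (-0.34). Mice of the same number deviated from their group means with correlations of 0.17, -0.118, -0.22, 0.0164 and 0.133, so the numbers did not pair the samples, and 1 of 5 NR mice correlated best with its own number.

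The log2 fold change of Kcnmb2 turned positive with upper-quartile scaling (0.012), every gene (0.0071), a floor of 1 CPM in 5 samples (0.0032), the replicate block (0.010) and without NR 3 and NR 5 (0.073). Without NR 3 and NR 5, Kcnma1 was 0.029, Kcnu1 -0.20 and Kcng4 -0.14, and Kcnu1 was -0.035 with the block. Without Vehicle 3 and Vehicle 4, Kcnn2 was 0.047, Kcna1 0.20 and Kcna10 0.058. Leaving out 1 mouse, the ranges were -0.39 to 0.011 for Kcna1, -0.13 to 0.016 for Kcnma1, -0.093 to 0.14 for Kcnmb2, -0.055 to 0.15 for Kcnt1 and -0.23 to 0.26 for Kcnu1. Over 38 named genes and all alternatives, 556 values kept their direction and side of the threshold, 51 lost it, 48 gained it and 27 turned sign. The median of all genes shifted by 0.020 with upper-quartile scaling and by 0.0014 with DESeq2 size factors. Low counts limit the untested members.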

Other observations

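Of members outside the naming rule, 3 low ones are given here as values, chosen after they were seen. Kcnj12 and Kcnd3, given above, were also outside the rule and not set in advance. Kcna7, a Shaker channel gene known from muscle, had 1.06, 0.403, 1.51, 0.917 and 1.10 CPM in NR and 0.645, 0.763, 0.769, 0.529 and 0.232 CPM in Vehicle. NR 2 was inside the Vehicle range and the other NR mice above it. Kcng1, a silent subunit gene, had 0.386, 0.582, 0.476, 0.437 and 0.232 CPM in NR and 0.596, 0.584, 0.526, 0.750 and 0.557 CPM in Vehicle, and only NR 2 reached the Vehicle range. Kcnmb4, a modifier of the large-conductance calcium-activated channel, had 0.819, 0.716, 0.909, 1.18 and 0.810 CPM in NR and 1.44, 1.26, 0.971, 1.01 and 1.11 CPM in Vehicle. Only NR 4 was inside the Vehicle range. The log2 fold changes were 0.75 (SE 0.37), -0.49 (SE 0.25) and -0.38 (SE 0.20), and none passed an unadjusted edgeR p of 0.05.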
